A study of Mus musculus with 8 samples.

Results

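The intracellular calcium store of the mouse brain was examined through the 9 genes that encode its release channels and its refilling pump. These are the ryanodine receptors Ryr1, Ryr2 and Ryr3, the inositol 1,4,5-trisphosphate (IP3) receptors Itpr1, Itpr2 and Itpr3, and the sarco/endoplasmic reticulum calcium ATPases (SERCA) Atp2a1, Atp2a2 and Atp2a3. The members were chosen by gene symbol and all 9 were found among 24343 genes, with 14 transcripts in all. Whole brains of 3 C57BL/6NCrl mice, aged 56–62 days and of a single condition with no treatment contrast, were measured by bulk RNA-seq. Mice 1 and 2 gave 3 libraries each and mouse 3 gave 2, and the meaning of the library numbers is not given in the sources used here. Levels are FPKM, that is, sequenced fragments scaled to transcript length and library size, summed over the transcripts of a gene, so that levels of different genes are set side by side per length.

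Calcium is pumped from the cytosol into the endoplasmic reticulum by SERCA pumps and leaves it through IP3 receptors, which open when a receptor at the cell surface activates phospholipase C, and through ryanodine receptors, which open on calcium itself. In neurons, both channels amplify calcium signals at synapses and dendrites. Itpr1 is best known from cerebellar Purkinje cells, Ryr1 and Atp2a1 from skeletal muscle, and Ryr2 and Atp2a2 from the heart.

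In each library, all 8 genes of a brain marker list (Snap25, Syt1, Rbfox3, Slc17a7, Gad1, Mbp, Aqp4 and Cx3cr1) were detected, with a summed level between 3071 and 5142 FPKM. The largest parts of the sum were Mbp of myelin and Snap25 (915 to 1119 FPKM). Mbp was at 1253 to 1365 FPKM in mice 1 and 2 and at 2836 and 3495 in mouse 3, where the sum was highest. Aqp4 of astrocytes (59.1 and 66.7 FPKM in mouse 3, 43.5 to 49.4 in the others) and Cx3cr1 of microglia (13.6 and 13.2, against 9.50 to 11.6) were higher in both libraries of mouse 3 as well. The neuronal markers Syt1 (180 and 147 FPKM, against 267 to 276), Rbfox3 (57.1 and 49.9, against 71.3 to 79.1) and Gad1 (92.2 and 76.5, against 110.3 to 141) were lower in both, whereas Snap25 and Slc17a7 overlapped. Between 1.31 and 2.02 gigabases were read on transcripts in each library. Both libraries of mouse 3 stood apart from the other 6 in the dependence of levels on transcript length. Each library's deviation from the 8-library mean of log2(FPKM + 1) was ranked against length, over 13001 genes averaging at least 1 FPKM. Spearman's rho was −0.36 and −0.57 in mouse 3 and 0.18 to 0.50 in the other libraries, as a description across genes. The receptor transcripts are among the longest in the table, at 8990 to 16813 nt, so the members' tests are also given with that trend removed.

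Splicing of 3 members was measured at the level of transcripts, and the alternative coding sequence is shown here because it decides which pump or receptor each transcript encodes. The sequences come from GENCODE release vM21 transcripts on the GRCm38 build, on the strand of the gene. Atp2a2 lies on chr5:122453513-122502225 on the minus strand and ends in either of 2 ways. The muscle pump SERCA2a (NM_009722) splices from its next-to-last exon (last 30 bases, chr5:122457303-122457332) to a distal exon and stops there (chr5:122454291-122454304). The widespread pump SERCA2b (NM_001110140) reads on through the same splice site to a stop codon of its own (chr5:122457151-122457302). Capitals mark the bases, stop codon included, that are not shared.
SERCA2a end: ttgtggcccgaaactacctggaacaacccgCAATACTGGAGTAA
SERCA2b end: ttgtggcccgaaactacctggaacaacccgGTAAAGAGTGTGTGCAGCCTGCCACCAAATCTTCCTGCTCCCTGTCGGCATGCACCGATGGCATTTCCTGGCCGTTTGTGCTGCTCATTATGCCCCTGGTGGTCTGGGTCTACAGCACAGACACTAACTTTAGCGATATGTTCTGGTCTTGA

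Atp2a3 lies on chr11:72961169-72993043 on the plus strand, and 2 of its 3 transcripts carry a coding exon near the 3′ end that the other one (NM_001163336) skips. The exon spans chr11:72989475-72989560 in NM_001163337. Capitals mark the first 73 bases, to which the shorter form in NM_016745 is limited.
Atp2a3 optional exon: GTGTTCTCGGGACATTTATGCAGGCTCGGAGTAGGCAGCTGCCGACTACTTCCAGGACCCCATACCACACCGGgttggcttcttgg

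Itpr2 lies on chr6:146108299-146502223 on the minus strand. Of its transcripts, NM_019923 includes a coding exon of 99 bases (chr6:146418418-146418516) that NM_010586 lacks.
Itpr2 optional exon: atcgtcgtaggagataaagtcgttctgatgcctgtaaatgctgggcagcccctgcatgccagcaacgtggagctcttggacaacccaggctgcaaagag

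Each family was dominated by a single gene, and the pump and IP3 receptor genes were far above the ryanodine receptor genes. Summed over its genes, the SERCA family reached 149 ± 28.9 FPKM (SD, n = 3 mice), the IP3 receptor family 84.9 ± 6.07 and the ryanodine receptor family 9.87 ± 2.33. By mean level the order was Atp2a2 (141 FPKM), Itpr1 (81.9), Atp2a3 (7.69), Ryr2 (7.27), Itpr2 (2.19), Ryr3 (1.86), Itpr3 (0.802), Ryr1 (0.747) and Atp2a1 (0.223). Of the 8 neighbouring pairs in this order, 5 had mouse means that did not overlap. Those of Atp2a3 and Ryr2, of Itpr2 and Ryr3, and of Itpr3 and Ryr1 overlapped, so the order within those pairs is not resolved. Atp2a2 was higher than 98.4% of all genes in the table and Itpr1 higher than 97.0%, whereas Atp2a1 was higher than 36.9%.

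**Figure D1:**
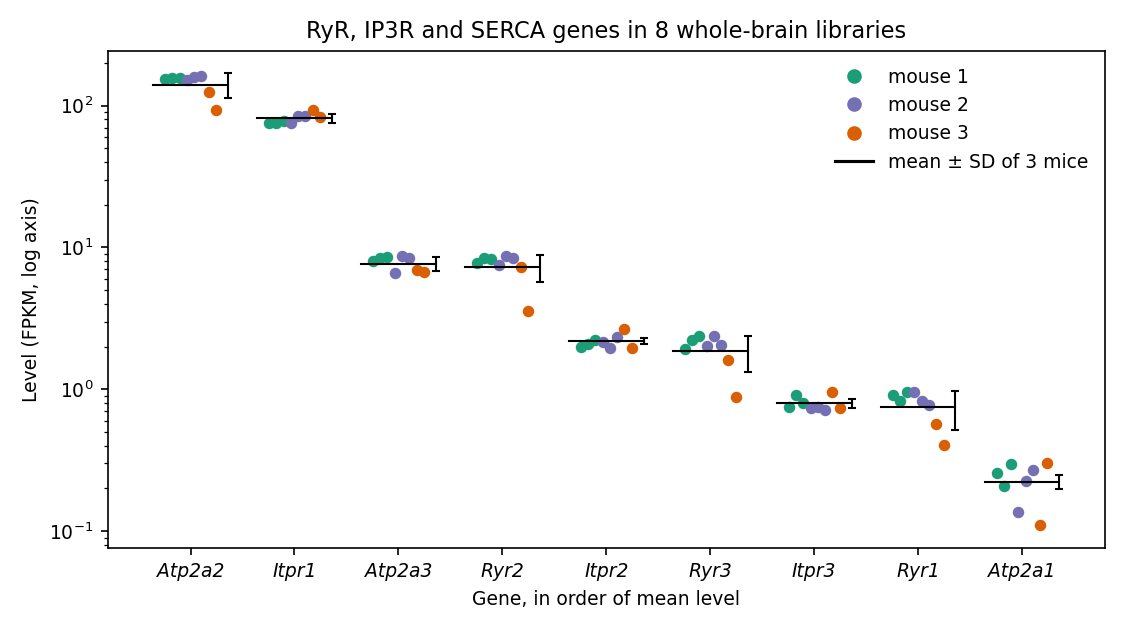
Level of each gene in each library (FPKM, log axis), coloured by mouse, with the mean and SD of the 3 mouse means. Atp2a2 and Itpr1 stand about an order of magnitude above the next gene, and the libraries of mouse 3 are the lowest for Atp2a2, Ryr1, Ryr2 and Ryr3.

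Among the ryanodine receptors, Ryr2, the channel of heart muscle and the main neuronal form, was read at 7.74, 8.41 and 8.35 FPKM in mouse 1, at 7.52, 8.71 and 8.36 in mouse 2, and at 7.31 and 3.57 in mouse 3. The second library of mouse 3 was at less than 50% of every other library, and the first was the next lowest. Ryr3, a form found in brain and in smooth muscle, was read at 1.92, 2.22 and 2.38 FPKM in mouse 1, at 2.01, 2.38 and 2.04 in mouse 2, and at 1.62 and 0.883 in mouse 3. Ryr1, the calcium release channel of skeletal muscle, was read at 0.913, 0.832 and 0.952 FPKM in mouse 1, at 0.961, 0.830 and 0.778 in mouse 2, and at 0.566 and 0.406 in mouse 3. For Ryr1, Ryr2 and Ryr3 alike, both libraries of mouse 3 were below all 6 libraries of the other mice.

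The proportions among the ryanodine receptor genes varied far less than their levels. Ryr2 held 73.7 ± 1.35% of the family's summed FPKM, Ryr3 18.7 ± 0.935% and Ryr1 7.62 ± 0.432% (SD, n = 3 mice). The share of Ryr2 lay between 71.5% and 77.0% in the 8 libraries, and it was 73.5% in the library with the lowest level of Ryr2. The ratio of Ryr2 to Ryr3 was 3.96 ± 0.277 over the mice, with single libraries from 3.51 to 4.52.

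Among the IP3 receptors, Itpr1 was read at 75.2, 75.8 and 77.8 FPKM in mouse 1, at 75.2, 84.7 and 84.0 in mouse 2, and at 93.0 and 83.3 in mouse 3. The highest library was the first of mouse 3, and the ranges of mice 2 and 3 overlapped. Itpr2, the form prominent in astrocytes, lay between 1.95 and 2.66 FPKM (median 2.13), with the lowest and the highest value both in mouse 3. Itpr3, known mainly from epithelia and taste cells, lay between 0.718 and 0.953 FPKM (median 0.755), again with overlapping mice. Itpr1 held 96.5 ± 0.148% of the family's FPKM, Itpr2 2.58 ± 0.0728% and Itpr3 0.947 ± 0.0836%. In single libraries the share of Itpr1 ranged only from 96.2% to 96.9%.

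Among the pumps, Atp2a2 was read at 154, 158 and 156 FPKM in mouse 1, at 152, 160 and 162 in mouse 2, and at 124 and 92.7 in mouse 3. The 6 libraries of mice 1 and 2 were within 152 and 162 FPKM, and both libraries of mouse 3 were below them. Atp2a3, the pump of blood cells, endothelium and Purkinje cells, lay between 6.59 and 8.74 FPKM (median 8.23), with its lowest value in the first library of mouse 2 and the next lowest in both libraries of mouse 3. Atp2a1, the fast pump of skeletal muscle, lay between 0.110 and 0.301 FPKM (median 0.241). Only 0.772 to 2.50 kilobases were read on its transcript of 3440 nt in a library, compared with 1117 to 2215 kilobases on Atp2a2, so differences in Atp2a1 were not resolved at this depth. Of the SERCA FPKM, Atp2a2 held 94.6 ± 0.666%, Atp2a3 5.27 ± 0.633% and Atp2a1 0.158 ± 0.0335%.

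**Figure D2:**
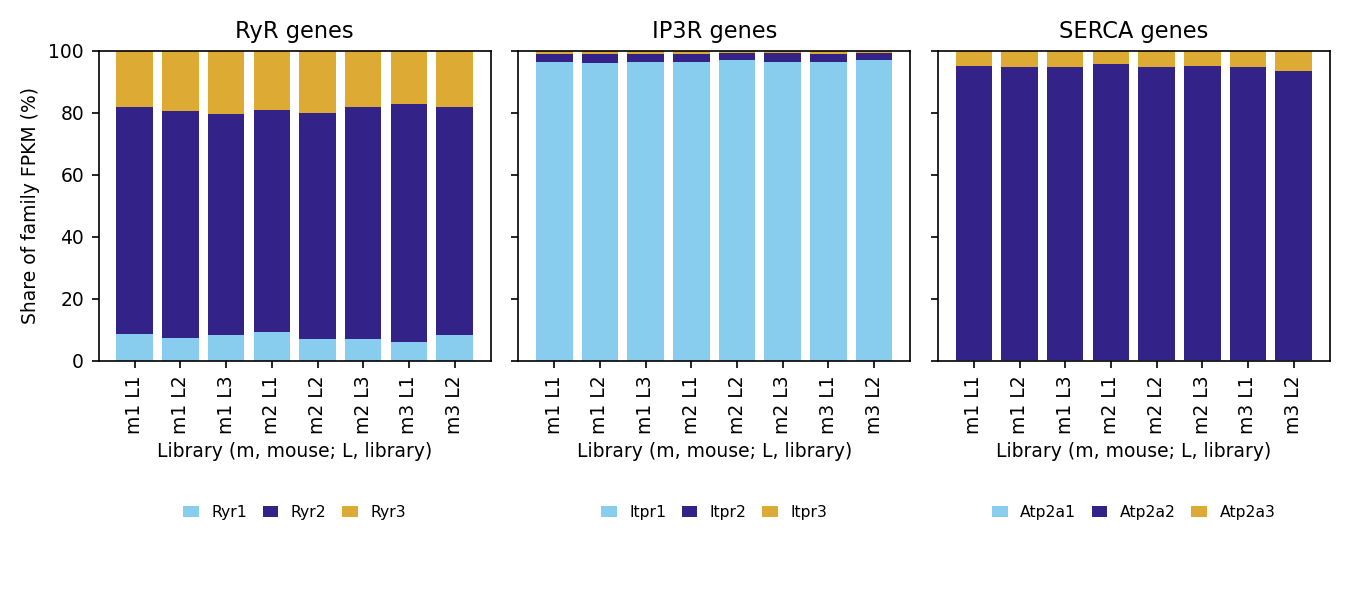
Share of each gene in the summed FPKM of its family (percent) in each library, named by mouse (m) and library (L). Ryr2 holds 71.5% to 77.0% of its family, Itpr1 96.2% to 96.9% and Atp2a2 93.0% to 95.8%, with little difference between libraries.

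Ratios within a library do not depend on how it is scaled, and 2 of the 3 ratios below, those with the IP3 receptors, differed between mouse 3 and the others in both of its libraries. The ratio of Atp2a2 to Itpr1 was 2.05, 2.08 and 2.00 in mouse 1, 2.02, 1.89 and 1.93 in mouse 2, and 1.33 and 1.11 in mouse 3. Thus the pump gene exceeded the receptor gene in every library, by a smaller factor in mouse 3. The summed IP3 receptor level was 6.88 to 7.79 times that of the ryanodine receptors in the 6 libraries of mice 1 and 2, and 10.2 and 17.7 times in mouse 3. The ratio of SERCA to ryanodine receptor levels was 13.8 to 15.4 in 7 libraries and 20.5 in the second library of mouse 3, while the first library of mouse 3 had the lowest value, so this ratio did not set mouse 3 apart. These ratios were not tested.

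Levels of muscle genes were read beside the members known from muscle. The 10 skeletal muscle markers (Acta1, Ckm, Myh1, Myh2, Myh4, Mylpf, Tnnt3, Tnnc2, Actn3 and Myog) summed to 3.10 to 5.05 FPKM in 7 libraries and to 14.6 in the first library of mouse 2, and only the mean of Acta1 reached 1 FPKM. Ckm was listed at 0 in 7 of 8 libraries. Atp2a1 was 0.136 FPKM in the library with the highest sum, below its median. The 6 heart markers (Myh6, Myl7, Nppa, Tnnt2, Tnni3 and Actc1) summed to 2.84 to 4.26 FPKM, with Actc1 listed at 0 in all 8 libraries, beside 92.7 to 162 FPKM of Atp2a2. The 5 smooth muscle markers (Acta2, Myh11, Tagln, Cnn1 and Des) summed to 18.2 to 26.2 FPKM, highest in the second library of mouse 3, where Ryr3 was lowest. In that library 3 of the 5 were at their highest, but Myh11 was at its lowest (1.92 FPKM).

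At the 3′ end of Atp2a2, nearly all of the signal was assigned, by the authors' estimation, to transcripts with the SERCA2b stop codon printed above. These held 97.6 ± 2.27% of the gene's FPKM (SD, n = 3 mice) and the SERCA2a transcript NM_009722 held 2.42 ± 2.27%. By library the SERCA2a share was 0.483%, 1.57% and 1.03% in mouse 1, 0.796%, 1.23% and 1.54% in mouse 2, and 7.57% and 2.50% in mouse 3. Both libraries of mouse 3 were above the other 6, and the first was apart from the rest. The lower confidence bound of NM_009722 was above 0 in all 8 libraries.

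Of the SERCA2b signal, most was assigned to NR_027838, which holds the same stop codon but extends beyond the end of NM_001110140 and splices on to the distal exon. GENCODE classes this transcript as a target of nonsense-mediated decay, a pathway that removes transcripts with an exon junction downstream of the stop codon. NR_027838 held 91.5 ± 7.55% of Atp2a2 FPKM, from 74.0% to 99.5% in single libraries. NM_001110140 held 6.11 ± 5.63%, and its lower bound was 0 in 3 of 8 libraries. NR_027838 shares most of its bases with NM_001110140 and its distal exon with the SERCA2a transcript NM_009722. The division of reads among all 3, the SERCA2a share included, is therefore an estimate, and whether the share of NR_027838 reflects reads on its own stretch of exon or the estimation was not tested.

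Atp2a3 was mainly assigned to the transcript without the optional exon, NM_001163336, at 77.8 ± 1.92% of the gene's FPKM. The forms with the exon held 22.2 ± 1.92%, from 14.5% to 35.97% in single libraries. Of these, NM_016745 held 18.3 ± 4.01% and NM_001163337, the form with all 86 bases, 3.86 ± 3.95%. The first library of mouse 2 was the exception, with 17.9% from NM_001163337 and 0.0171% from NM_016745, whereas NM_001163337 held at most 7.17% in the other 7. For Itpr2, NM_019923 with the exon of 99 bases held 71.4 ± 22.9%, and single libraries ranged from 24.0% to 99.97%. In mouse 1 alone, the share was 29.4%, 24.0% and 82.7%, so libraries of the same mouse differed as much as the mice did, and the use of this exon was not resolved at a gene level near 2 FPKM.

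**Figure D3:**
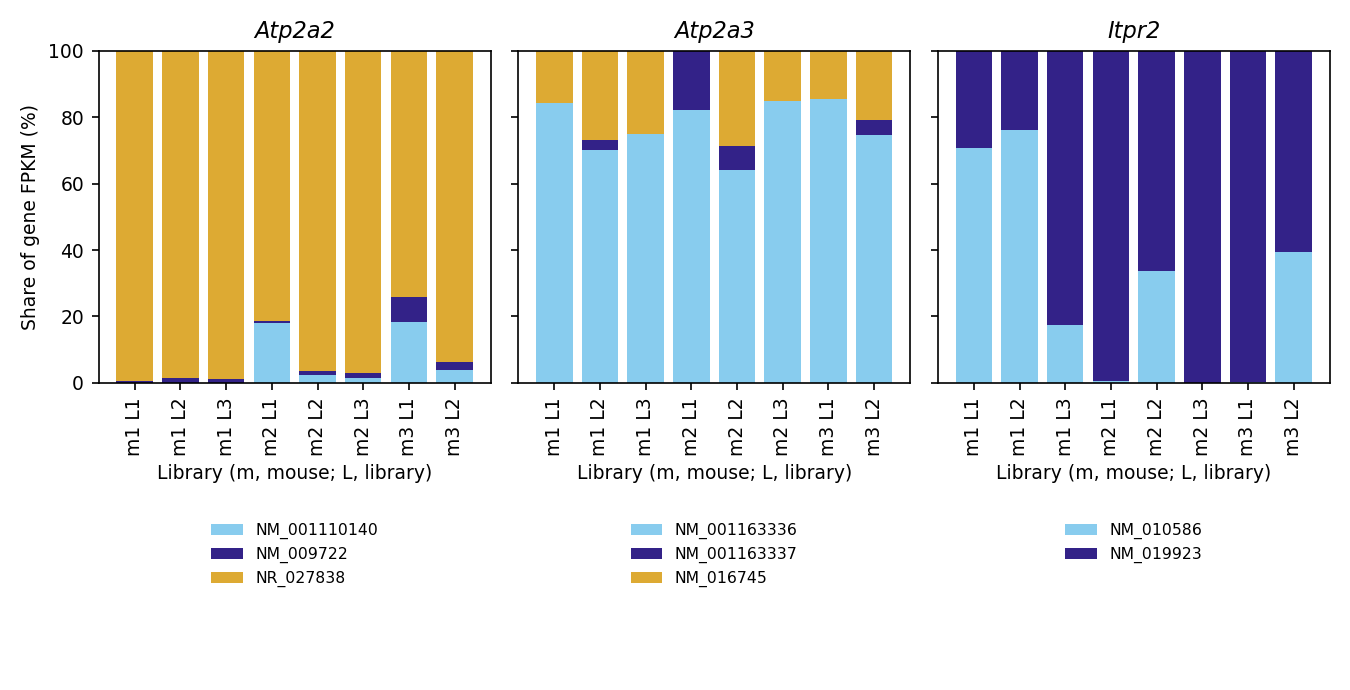
Share of each transcript in the summed FPKM of Atp2a2, Atp2a3 and Itpr2 (percent) in each library, named by mouse (m) and library (L). NR_027838 leads Atp2a2 and NM_001163336 leads Atp2a3 in all 8 libraries, whereas the leading transcript of Itpr2 differs between libraries of mouse 1.

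The 3 mice were compared by the moderated F-test of limma on log2(FPKM + 1), and p-values were adjusted (Benjamini-Hochberg) over all 13001 genes whose mean reached 1 FPKM. The libraries were the replicates, so the test compares these 3 mice and the p-values measure only the spread between libraries. Each p-value is for any difference among the 3 mice, so it is not a test of mouse 3 alone. Of the 6 members tested, 2 passed an adjusted p of 0.05, Atp2a2 and Ryr3, both lower in mouse 3, beside 25.5% of all genes tested (11.3% lower and 14.1% higher in mouse 3). With so large a share of all genes called, a count of 2 among 6 does not set the members apart.

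On the log2(FPKM + 1) scale, Atp2a2 was lower in mouse 3 than in the mean of mice 1 and 2, with a difference of −0.55 (SE 0.106, limma adjusted p = 0.0204). For Ryr3 the difference was −0.51 (SE 0.127, limma adjusted p = 0.0462). For Ryr2 it was −0.57 (SE 0.187), which did not pass the test (limma adjusted p = 0.110), as its 2 libraries of mouse 3 lay far apart. Atp2a3 (−0.23, adjusted p = 0.215), Itpr1 (0.16, adjusted p = 0.241) and Itpr2 (0.07, adjusted p = 0.810) did not pass either in the limma test. Mice 1 and 2 differed by at most 0.09 in size for each of the 6 genes. In bulk tissue, fewer cells of a type and less RNA per cell cannot be told apart.

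The calls rested on few libraries. Without the second library of mouse 3, the share of genes called fell to 0.969% (0.308% lower and 0.661% higher in mouse 3) and 0 of 6 members passed in limma, although 1 (Atp2a2) had an unadjusted p under 0.05, with a difference of −0.34 for Atp2a2 (limma adjusted p = 0.1004) and of −0.27 for Ryr3 (adjusted p = 0.298). In that fit the remaining library of mouse 3 is assumed to vary like those of the other mice. Atp2a2 passed in 7 of the 8 fits that left out a library and Ryr3 in 1. Without the first library of mouse 3, Ryr2 passed as well (−1.004, limma adjusted p = 0.00518). Without the first library of mouse 2, Atp2a3 passed (−0.29, limma adjusted p = 0.0345).

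Removal of the trend with transcript length changed which members stood out. Among the 543 genes with transcripts of at least 8000 nt, the median difference of mouse 3 was −0.29 and 88.03% were lower in mouse 3, while the median of all genes tested was 0.02. Ryr2 and Ryr3 were lower than that median and Itpr1 and Itpr2 higher. With the trend removed, the difference was −0.21 for Ryr2 (limma adjusted p = 0.318) and −0.15 for Ryr3 (adjusted p = 0.301), whereas Atp2a2 still passed at −0.38 (SE 0.0772, adjusted p = 0.0262). Itpr1 was then higher in mouse 3 by 0.44 (SE 0.0684, limma adjusted p = 0.0107) and Itpr2 by 0.38 (SE 0.0667, adjusted p = 0.0155), beside 20.3% of all genes called (9.42% lower and 10.8% higher in mouse 3).

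Scaling of each library to the same total (TPM) moved the median of all genes to −0.26 and the calls to 42.3% of genes, 36.7% lower and 5.52% higher in mouse 3. Relative to that median, Itpr1 was at 0.12 and Itpr2 at 0.09, although their differences as such were negative (−0.14 and −0.17). Relative to it, Atp2a2 was at −0.59, Ryr2 at −0.66, Ryr3 at −0.66 and Atp2a3 at −0.28, and these 4 passed with TPM. TPM were 2.44 to 3.38 times the FPKM, and 1 was added to both before the log. Differences of low genes such as Ryr3 are therefore damped less with TPM. Relative to the median of all genes, Itpr1 was thus above 0 on all 3 scales (0.14 as deposited, 0.12 with TPM and 0.45 with the length trend removed), as was Itpr2 (0.05, 0.09 and 0.39), and Atp2a2 was below 0 on all 3. These scales use the same 8 libraries, and Itpr1 and Itpr2 passed only with the length trend removed. For Itpr2, the values as deposited and with TPM were smaller than the SE of its difference (0.0972 and 0.137). The part of the glial and neuronal markers, which also differed in mouse 3, in these differences was not tested.

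**Figure D4:**
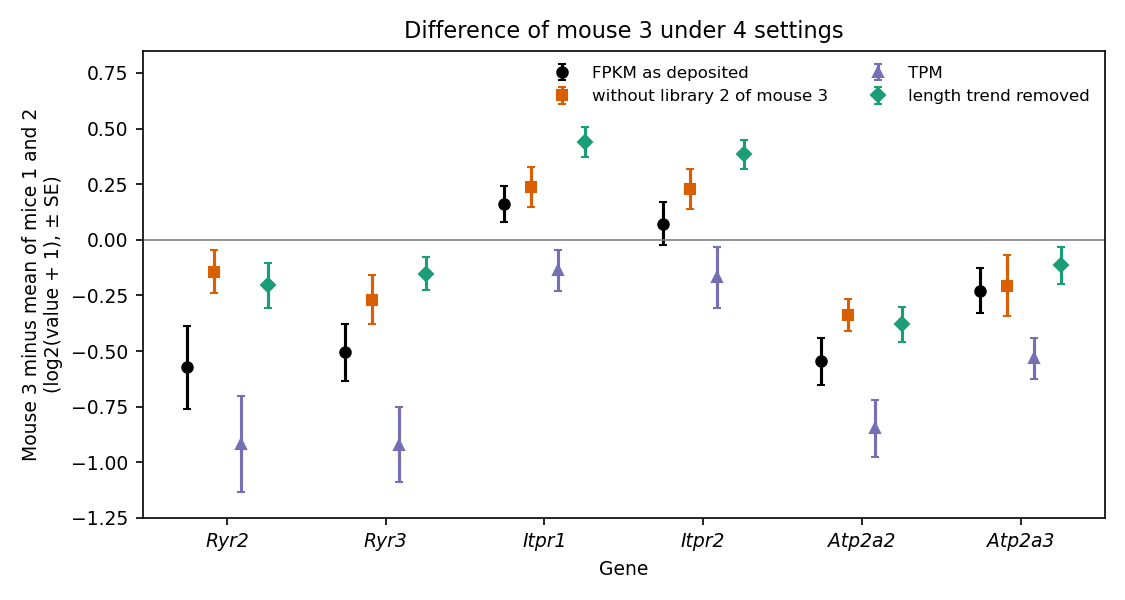
Difference of mouse 3 from the mean of mice 1 and 2 on the log2(value + 1) scale, with its SE from the limma fit, for the 6 tested genes under 4 settings. Atp2a2 is below 0 in all 4, at −0.34 to −0.85, whereas Itpr1 and Itpr2 are below 0 with TPM only, where the median of all genes is −0.26.

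Ryr1, Itpr3 and Atp2a1 had means below 1 FPKM and were tested with a minimum of 0.1 FPKM, where 18% of 16392 genes were called (7.88% lower and 10.1% higher in mouse 3). Ryr1 was lower in mouse 3 by this fit, with a difference of −0.34 (SE 0.0791, limma adjusted p = 0.0442). Without the second library of mouse 3 the difference was −0.26 (limma adjusted p = 0.248). Itpr3 (0.05, adjusted p = 0.684) and Atp2a1 (−0.04, adjusted p = 0.863) did not pass in limma. With this minimum and all 8 libraries, Ryr3 did not pass either (limma adjusted p = 0.0565), whereas Atp2a2 did (0.0255). With the length trend removed at this minimum, 14.8% of genes were called (6.81% lower and 8.03% higher in mouse 3). The difference of Ryr1 was then −0.025 (limma adjusted p = 0.808), that of Itpr3 was 0.29 and passed (SE 0.0640, adjusted p = 0.0377), and that of Atp2a1 was 0.0037 (adjusted p = 0.993).

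The 6 Purkinje cell markers reported here (Pcp2, Car8, Calb1, Ppp1r17, Gng13 and Slc1a6) summed to 281 to 371 FPKM in 7 libraries and to 569 in the second library of mouse 3. There the sum was carried by Gng13 (216 FPKM) and Pcp2 (179), whose transcripts are short (414 and 473 nt). Among the 2601 tested genes with the shortest transcripts (77 to 1558 nt), the median difference of mouse 3 was 0.42. The part of transcript length in the sum was not tested. Itpr1 was 83.3 FPKM in the second library of mouse 3, inside its range in the other 7. Of the 6 markers, 4 were highest in that library, but Calb1 (71.1 FPKM) and Slc1a6 (10.3) were not. Their part in the differences of Itpr1 and Atp2a3 was not tested. Platelet and blood markers (Pf4, Ppbp, Itga2b, Hba-a1, Hbb-bs and Ptprc) summed to 373 to 615 FPKM and choroid plexus markers (Ttr, Kl, Folr1, Clic6 and Kcne2) to 322 to 566 FPKM. Both sums were lowest in the first library of mouse 2, where Atp2a3 was lowest too, and highest in the second library of mouse 3. They were carried by Hba-a1 and Ttr, and in that second library Ptprc (0.564 FPKM), Kl (2.73) and Clic6 (2.61) were at their lowest of all 8. Their part in the levels of Atp2a3 was not tested.

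The genes whose pattern over the 8 libraries was most like that of each member were found by the root-mean-square (RMS) difference of centred log2(FPKM + 1) values among 13001 genes. For Atp2a2 these were Arhgap20 (RMS 0.0167) and Arhgap32 (0.0207), against an SD of 0.278 for Atp2a2 itself. For Ryr2 they were Dync1h1 (0.0369) and Nav1 (0.0464), with transcripts of 14398 and 12767 nt, and for Ryr3 Son (0.0436) and Snrnp200 (0.0461). Itpr1 was closest to Dennd2a (0.0340) and Mprip (0.0365), and Itpr2 to Sh3pxd2a (0.0367) and Arhgap23 (0.0387). Atp2a3 was closest to Dnajc5 (0.0330) and Trp53 (0.0346). Since the libraries come from 3 mice, these likenesses are descriptions with no test.

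Regulators and partners of the members, and other genes of calcium store signalling, were read from 6 lists of 71 genes. Of these, 70 were found and 56 tested. In all, 17 of 56 passed (5 lower and 12 higher in mouse 3), 30.4% beside 25.5% of all genes (11.3% lower and 14.1% higher). The median difference over the 56 genes was 0.09, beside 0.02 over all genes tested. Without the second library of mouse 3, the median over the 56 was 0.10, with S100a1 at 1.09 and Itpkb at 0.73. The calls of these lists, like those of the members, rested on few libraries. With TPM 23 passed (41.1%), 18 lower and 5 higher, beside 42.3% of all genes (36.7% lower and 5.52% higher). The median with TPM was −0.17, beside −0.26 over all genes. With the length trend removed 17 passed (30.4%), 3 lower and 14 higher, beside 20.3% of all genes (9.42% lower and 10.8% higher).

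Of the small membrane proteins that restrain SERCA, phospholamban (Pln) was at 0.880 to 1.45 FPKM and sarcolipin (Sln) at 0 to 0.931, against 92.7 to 162 FPKM of Atp2a2. Mrln (myoregulin) was at 0 to 3.39 FPKM and 1810037I17Rik (another-regulin) at 35.6 to 97.5. The latter 2 of the 3 tested passed, beside 25.5% of all genes tested. Their differences in mouse 3 were 0.95 and 0.93 on the log2 scale (limma adjusted p = 0.0314 and 0.0149). For Mrln the means of mice 1, 2 and 3 were 1.48, 0.455 and 2.64 FPKM, and the libraries of mice 1 and 3 overlapped. The transcripts of Mrln and 1810037I17Rik are short (446 and 976 nt). With the length trend removed, the difference was 0.11 for Mrln (limma adjusted p = 0.183) and 0.47 for 1810037I17Rik (adjusted p = 0.0454). Another-regulin was the most abundant of the 4 measured, in all 8 libraries.

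Inside the store, the buffering chaperones calreticulin (Calr, 138 to 173 FPKM), Hsp90b1 (102 to 126) and calnexin (Canx, 90.6 to 99.8) led the list of proteins that bind calcium in the lumen. None of these 3 passed, and 1 of 10 tested did, beside 25.5% of all genes tested. Around the ryanodine receptors, the immunophilin Fkbp1a (169 to 223 FPKM), S100a1, a calcium sensor that binds RyR and SERCA, and the junction protein Jph4 (49.7 to 63.7) were highest. S100a1 was at 63.0 to 64.3 FPKM in mice 1 and 2 and at 137 and 174 in mouse 3. Its difference was 1.26 (SE 0.0944, limma adjusted p = 0.00413). It was 1 of 2 among 8 tested that passed, both higher, beside 14.1% of all genes higher and 11.3% lower. With the length trend removed, the difference of S100a1, a transcript of 615 nt, was 0.57 (limma adjusted p = 0.0209).

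Of the genes that make and remove IP3, 6 of 18 tested passed, 3 in each direction. Over all genes tested the share was 25.5%, with 11.3% lower and 14.1% higher in mouse 3. Itpka, a kinase of IP3, was at 28.4 to 45.7 FPKM and the phosphatase Inpp5a at 31.0 to 38.3, and neither passed. Gnaq, the G protein that activates phospholipase C, was at 41.1 to 42.5 FPKM in mice 1 and 2 and at 35.3 and 30.7 in mouse 3 (limma adjusted p = 0.0313), and it did not pass with the length trend removed (adjusted p = 0.113). Of the listed IP3 receptor regulators, 5 of 8 tested passed, 4 higher and 1 lower, beside the same 25.5% of all genes. With TPM 2 passed, both lower, beside 42.3% of all genes (36.7% lower). The distance of this list from those shares was not tested. Ahcyl1 (IRBIT), which competes with IP3, was at 104 to 115 FPKM in mice 1 and 2 and at 132 and 143 in mouse 3 (limma adjusted p = 0.0369). Cabp1, a calcium-binding inhibitor of the receptor, was at 52.2 to 56.1 FPKM in mouse 1, at 45.6 to 50.3 in mouse 2, and at 43.7 and 40.2 in mouse 3. Mice 1 and 2 thus differed as well, and the test was over all 3 mice (limma adjusted p = 0.0367). Car8, which lowers the affinity of Itpr1 for IP3, was at 36.9 to 39.8 FPKM in 7 libraries and at 69.1 in the second library of mouse 3 (limma adjusted p = 0.162). Of the genes that carry or regulate the refill of the store from outside, 1 of 9 passed, beside 25.5% of all genes. The highest in this list were Saraf (68.7 to 113 FPKM), Stim1 (mean 18.5) and Orai2 (14.2 to 17.6), none of which passed.

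**Figure D5:**
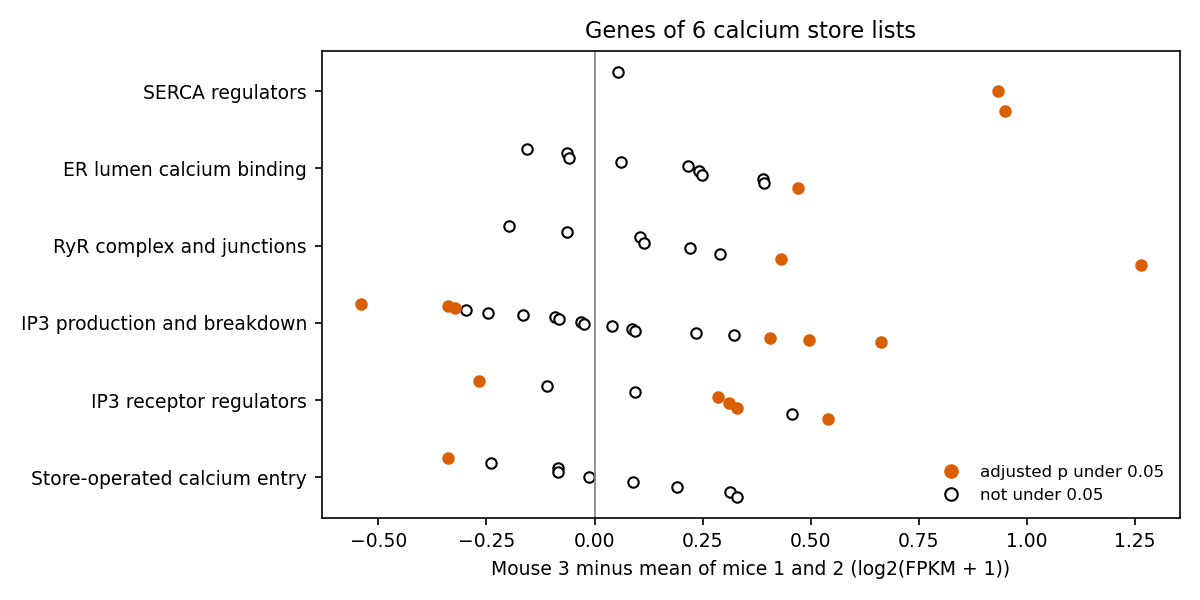
Difference of mouse 3 from the mean of mice 1 and 2 on the log2(FPKM + 1) scale for the 56 tested genes of 6 lists, one point per gene, filled where the limma adjusted p is under 0.05. Of these, 5 filled points lie below 0 and 12 above, and the one farthest above 0 is S100a1 at 1.26.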

How the data were processed

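RNA was extracted from whole brains with the RNAqueous Micro kit, kept where its integrity score was above 8, and made into libraries with the Kapa mRNA HyperPrep kit for a NextSeq500 instrument. The submitters' processing notes name TopHat, Cufflinks and the mm10 build, without versions. The authors deposited FPKM per RefSeq transcript, with confidence bounds and a status, which was FAIL for 8 values in the whole table and for none of the members. The deposited coverage is a signal per base of each transcript, not scaled to the library. The counts behind the values were not used here, so no counting interval is given. Kilobases read were taken as coverage multiplied by length.

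FPKM was summed per gene, averaged per mouse and then over 3 mice. limma 3.58.1 in R 4.3.3 was used with log2(FPKM + 1), a minimum mean of 1 FPKM and a threshold of 0.05, and was tested on simulated data. Alternatives were a pseudocount or minimum of 0.1 FPKM, no filter, TPM, removal of each library's length trend (lowess, fraction 0.3), the highest transcript of each gene, share of bases, a replicate block and leaving out each library. The members, lists and tests were chosen with earlier results of these data known. Named genes are the 9 members, the 2 nearest genes to each tested member, the 3 highest genes of each list, every SERCA regulator and the markers, of which 1 is not reported here. Itpkb was named after its value was seen. Gene positions are those of the deposited table or, for Atp2a2, Atp2a3 and Itpr2, equal to them within 1 base in GENCODE vM21 (GRCm38).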

Additional observations from a re-analysis of the deposited data

Results flagged for a closer look

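A library stood apart from the other 7 in 6 of 26 measures of the members, by the gap to its nearest neighbour relative to the whole range. Chance gives about 1 in 20 only for independent, normally distributed values. The libraries come from 3 mice and several of these measures are shares of the same total, so 6 of 26 cannot be set against that rate. The second library of mouse 3 was apart in 4 of them. Ryr2 was at 3.57 FPKM there, against 7.31 in the next lowest library. In the same library, Atp2a2 held 93.0% of SERCA FPKM, Atp2a3 6.68% and Atp2a1 0.302%, against 94.6%, 5.27% and 0.180% in the nearest library for each. The first library of mouse 3 was apart in the share of the SERCA2a transcript NM_009722 in Atp2a2, at 7.57% against 2.50% in the next. The first library of mouse 2 was apart in the share of NM_001163337 in Atp2a3, at 17.9% against 7.17% in the next. The cause of these values was not tested.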

How the results depend on the processing

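The number of members called was 2 of 6, beside 3310 of 13001 genes (25.5%). It fell to 1 with a pseudocount of 0.1 FPKM (2910 of 13001 genes) and with the library number as a replicate block (2995 of 13001). With the highest transcript of each gene it was 1, beside 2481 of the genes whose highest transcript averaged at least 1 FPKM. It rose to 4 of 6 with TPM, beside 5493 of 13001 genes (42.3%). Without 1 library it ranged from 0 to 3, and the number of genes called from 126 to 3860, against 3310, with 5493 for TPM. With a minimum of 0.1 FPKM and without the second library of mouse 3, added after the data were seen, 31 genes and 0 members were called. With that minimum and the length trend removed, also added later, 4 of 9 members were called, beside 14.8% of all genes tested. Same-numbered libraries of different mice were at most weakly alike, as 7 such pairs had correlations of deviations from 0.0028 to 0.107 and 1 was over 0.1. Differently numbered pairs had correlations from −0.135 to 0.0645. Whether the numbers pair the samples weakly or not at all was not tested. Under the block, Atp2a2 still passed (limma adjusted p = 0.0424) and Ryr3 did not (0.104). TPM, which moved the median of all genes to −0.26, turned the difference of Itpr1 to −0.14 and of Itpr2 to −0.17, which are 0.12 and 0.09 relative to that median, and leaving out the first library of mouse 3 turned that of Itpr2 to −0.08 (range without 1 library −0.083 to 0.23).

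As a share of bases rather than FPKM, Ryr2 held 75.3%, Itpr1 96.1% and Atp2a2 95.6% of their families. With the highest transcript of each gene, Itpr1 held 96.9% and Atp2a2 95.3%. Without 1 library these shares ranged from 73.1% to 74.3% (Ryr2), 96.4% to 96.6% (Itpr1) and 94.3% to 94.8% (Atp2a2), and those of the leading transcripts from 76.0% to 80.0% (Atp2a3), 88.2% to 94.8% (Atp2a2) and 64.9% to 77.8% (Itpr2). The number of neighbours apart stayed 5 in each fit without 1 library.

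With the length trend removed, 1 SERCA regulator, 2 lumen genes and 0 store-operated entry genes were called, beside 20.3% of all genes. TPM called 2 lumen genes, 10 IP3 production genes, 2 IP3 receptor regulators and 4 store-operated entry genes, beside 42.3% of all genes. Without the second library of mouse 3, the median differences of the lists were 0.62 (SERCA regulators), 0.11 (lumen) and 0.24 (RyR complex). Those of the other lists were 0.05 (IP3 production), 0.21 (IP3 receptor regulators) and 0.08 (store-operated entry). For single values, the cause of each change was not tested.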
